A study of Mus musculus with 12 samples.

Results

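Dermis of Cthrc1-/- mice was compared between day 7 and day 0 of a wounding experiment. The genes described are those with a mean of at least 1 FPKM (fragment counts divided by transcript length and library size) over the 6 Cthrc1-/- samples, which held for 14216 of the 55401 genes in the deposited table. The members just inside this limit were 4930430F08Rik at 1.00012 FPKM and Mthfs at 1.00019 FPKM, and the gene just outside it was Ubash3b at 0.999258 FPKM. Messenger RNA was sequenced from 3 biological replicates in each of 4 groups, Cthrc1-/- day 0, Cthrc1-/- day 7, WT day 0 and WT day 7. All 4 groups were C57BL/6 mice aged 6 weeks, and the knockout groups differed from the WT groups by the Cthrc1-/- genotype alone as far as the labels say. The study describes paired wounds of equal size, and the labels do not say how the day 0 skin was taken relative to wounding or whether a sample pooled wounds. Cthrc1 (ENSMUSG00000054196, chr15:39076932-39087121, GRCm38) is the gene the knockout targets and was too low to be a member. Its counts were 0, 15 and 0 in the Cthrc1-/- day 0 samples and 12, 0 and 4 on day 7, against 1813 to 2972 in WT day 0 and 8276 to 11678 in WT day 7.

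Skin repair passes from inflammation, with neutrophils and macrophages entering the tissue, to a growth phase in which fibroblasts lay down matrix and new vessels form, and then to remodelling. Cthrc1 encodes a secreted glycoprotein with a short collagen triple helix repeat that is made by activated fibroblasts and smooth muscle cells of injured tissue and is known for effects on collagen deposition, Wnt signalling and cell migration. In dermis the surrounding cells include fibroblasts, vessels with their pericytes, resident immune cells, nerves, and the hair follicles, whose growth cycle renews the hair shaft and its sheaths.

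Total counts ranged from 48329668 to 70867226 over the 6 Cthrc1-/- samples, and 3 counts, the limit that a count of 0 allows, corresponded to between 0.0423 and 0.0621 CPM, a count divided by its library's total. Dermal fibroblast genes and hair follicle genes ran in opposite order among the day 0 samples. The summed FPKM of the 16 fibroblast markers was 2349, 1328 and 418 in day 0 replicates 1 to 3 and 2829, 2108 and 1986 on day 7. Inner root sheath genes of the hair follicle, 12 members led by Krt71 and Krt25, summed to 264, 4983 and 11906 FPKM on day 0 and 3859, 546 and 5482 FPKM on day 7, against 29.5 to 37.0 FPKM in WT day 0. Basal keratinocyte genes such as Krt14 and Krt5 were also high in every sample, at a sum of 8975, 7801 and 4109 FPKM on day 0, so epidermal and follicular transcripts were present in the tissue labelled dermis. Day 0 replicate 3 stood apart, with the lowest fibroblast sum, the highest hair follicle sum and the outermost position on the first principal component (92.3, against -30.5 and 34.4 for replicates 1 and 2). The share of counts from the mitochondrial chromosome was 9.83% to 10.4% on day 0 and 3.92% to 6.92% on day 7. The 100 most abundant genes took 28.9% to 29.8% of counts on day 0 and 23.6% to 24.3% on day 7. With a hair follicle score as covariate 362 genes were called in place of the 205 below, 202 of them shared, and the part of the fibroblast and mitochondrial differences in the results was not tested. In bulk tissue fewer cells of a type and less RNA per cell cannot be told apart.

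Between the days 205 genes were called, 1.44% of the genes tested (edgeR quasi-likelihood test, Benjamini-Hochberg adjusted p under 0.05). Of these 121 were higher on day 7 (0.851%) and 84 lower (0.591%). An unadjusted p under 0.05 was reached by 9.55% of genes upward and 8.57% downward. The median change was 3.86-fold among genes called higher and 2.27-fold among genes called lower. The limit of 1 FPKM is a mean over both days, so a gene low on either day could pass it through the other. Such genes tilt the calls and medians of lists toward change, among them Mest, Mx1 and Hey2 upward and Nog downward. In every called gene the FPKM values of the 3 day 7 samples lay entirely above or entirely below those of the 3 day 0 samples. Such separation was seen upward in 21.2% and downward in 4.97% of all genes in FPKM, and in 13.6% and 10.5% of genes after TMM scaling, which corrects for the share of counts taken by abundant genes. The median log2 change of all genes was -0.015 with TMM scaling and 0.15 with total-count scaling, and log2 changes below are on the TMM scale with their standard errors (SE). With total-count scaling 744 genes were called, 647 higher and 97 lower (87.0% higher, against 59.0%), which is 4.55% and 0.682% of genes. DESeq2 called 5.24% higher and 4.46% lower, so counts of called list members below are given with these alternatives where they differ. The fit of the 6 Cthrc1-/- samples alone called 81 genes and is not repeated by list below. It called 1 interferon-stimulated, 3 imprinted, 1 immediate early, 1 heat shock and 5 liver-type secreted genes, and 0 endothelial and 0 other collagen genes. It gave more calls than the main test for matricellular genes (3), BMP genes higher (1) and chemokines lower (1). The count rested on single libraries. It was 532 without day 0 replicate 3, 5 without day 0 replicate 2, 12 without day 7 replicate 1, 5 without day 7 replicate 2 and 80 without day 7 replicate 3. WT libraries, which share the estimate of spread, moved it to 71, 70 and 67 without WT day 0 replicates 1 to 3, 856 without WT day 7 replicate 1 and 86 without WT day 7 replicate 2. The serum albumin gene Alb and the cohesin regulator gene Pds5a kept their calls in all 12 omissions.

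**Figure D1:**
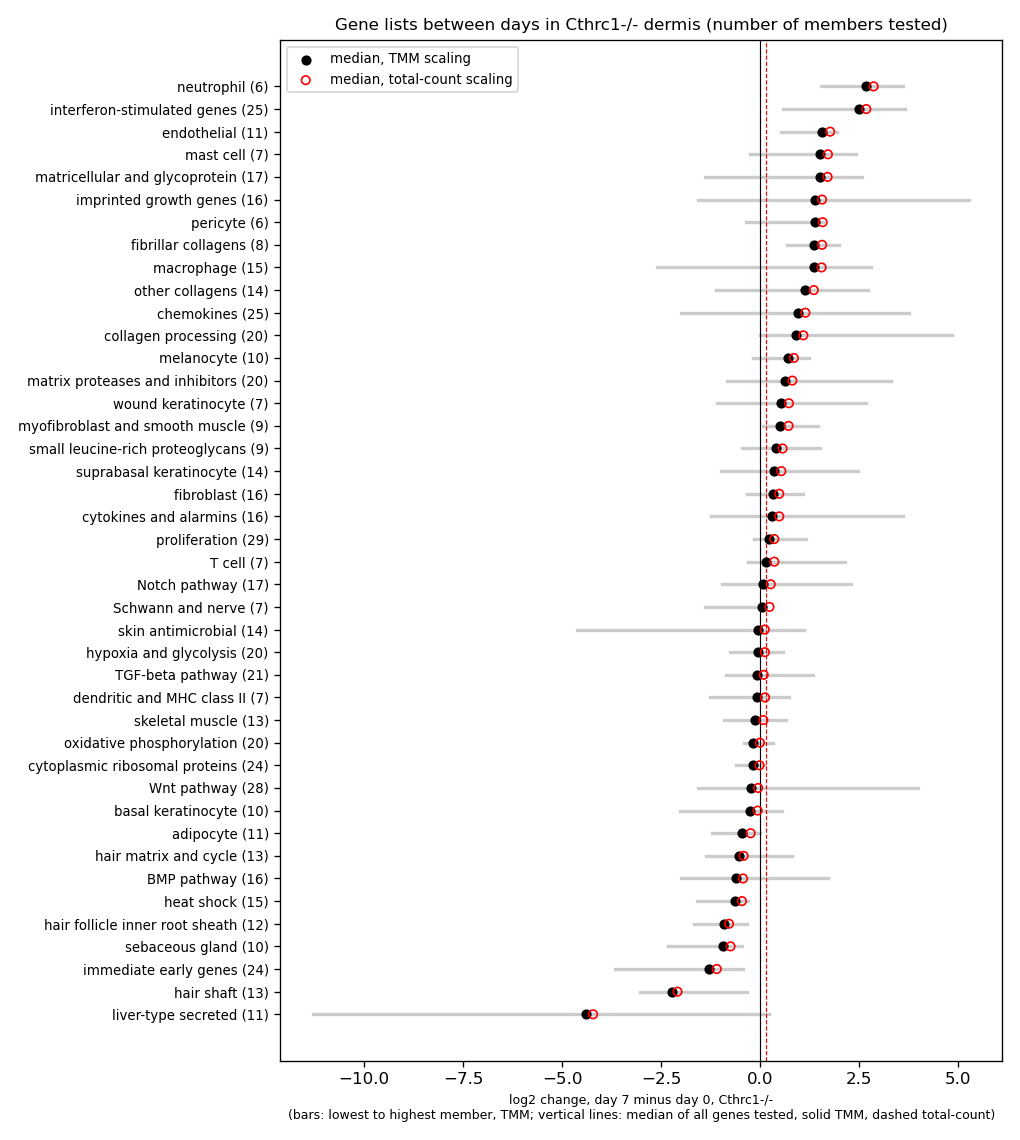
Median log2 change between the days of each gene list with 3 or more members in Cthrc1-/- dermis, with TMM scaling (filled) and total-count scaling (open). Grey bars run from the lowest to the highest member, and vertical lines mark the median of all genes. The interferon-stimulated genes had a median of 2.49, the heat shock genes -0.65 and the liver-type secreted genes -4.39.

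Interferon-stimulated genes were higher on day 7 in Cthrc1-/- dermis. Of 25 members of this list, 6 were called higher (0.851% of all genes), none lower, and in 24 of 25 the day 7 samples lay above all day 0 samples in FPKM (21.2% of all genes did). With total-count scaling 17 were called higher and by DESeq2 23. Their median log2 change was 2.49. Interferons bind receptors that activate a transcription factor complex containing STAT2 and IRF9, which binds a promoter element with repeated GAAA and switches on antiviral genes. This element is shown because most of the called genes of this list have it near their start. Searched as GAAANNGAAA on either strand, in windows from 250 bases before to 50 after the transcription start (RefSeq, GRCm38.p6), it was present in 10 of the 17 members that had a window, against 3.99% of the 27025 symbols with a window. Counted by window, it was present in 10 of 19 windows of these members and in 3.44% of all 32851 windows. The stretches below are 5′ to 3′ on the strand of the gene, upstream of its start, and capitals mark the matches, which read as TTTC repeats where the element lies on the opposite strand. The 3 matches in Isg15 overlap, and those of Ifit3 and its near-identical neighbour Ifit3b lie in the same 84 bases of sequence.
Ifit1, chr19:34640765-34640833, plus strand: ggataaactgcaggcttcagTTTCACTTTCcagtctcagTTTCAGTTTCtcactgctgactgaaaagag
Ifit3, chr19:34583353-34583436, plus strand: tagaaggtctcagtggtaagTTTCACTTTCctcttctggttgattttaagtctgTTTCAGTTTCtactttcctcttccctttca
Ifit3b, chr19:34607749-34607832, plus strand: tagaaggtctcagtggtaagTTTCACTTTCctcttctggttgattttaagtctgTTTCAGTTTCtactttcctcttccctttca
Stat2, chr10:128270256-128270305, plus strand: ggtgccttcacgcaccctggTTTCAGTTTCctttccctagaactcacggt
Isg15, chr4:156200855-156200916, minus strand: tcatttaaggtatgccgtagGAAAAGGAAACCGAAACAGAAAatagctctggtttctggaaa

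Ifit3, which encodes an interferon-induced protein with tetratricopeptide repeats, stood at 5.01, 3.75 and 1.76 FPKM on day 0 and 44, 74.9 and 22.3 on day 7. All day 7 samples were above all day 0 samples, and the gene rose (log2 change 3.57, SE 0.566, adjusted p 0.0228). Its copy Ifit3b had 1.27, 1.19 and 0.568 FPKM on day 0 and 13.7, 22.9 and 6.79 on day 7 and rose as well (log2 change 3.66, SE 0.563, adjusted p 0.0215), although reads of these paralogs may have been split between them. Ifit1, whose product binds viral RNA lacking host cap methylation, had 1.52, 1.17 and 0.373 FPKM on day 0 and 10.5, 15.1 and 3.89 on day 7, with replicate 2 highest and replicate 3 lowest on day 7 (log2 change 3.08, SE 0.646, adjusted p 0.0499). Oasl2, of the oligoadenylate synthetase family that senses double-stranded RNA, had 1.32, 1.13 and 0.65 FPKM on day 0 and 10.8, 22.7 and 6.25 on day 7. For Oasl2 the log2 change was 3.51 (SE 0.677, adjusted p 0.0425). The antiviral GTPase gene Mx1 was low on day 0, at 0.448, 0.305 and 0.183 FPKM, and stood at 2.71, 3.81 and 2.41 FPKM on day 7 (log2 change 3.06, SE 0.607, adjusted p 0.0446). Stat2, the signal transducer itself, had 1.69, 1.29 and 1.19 FPKM on day 0 and 6.31, 10.3 and 3.49 on day 7. This rise of Stat2 had a log2 change of 2.11 (SE 0.386, adjusted p 0.0365). The regulator of this pathway Irf7 separated completely between the days but was not called (2.22, 1.78 and 1.9 FPKM on day 0 and 10.7, 31.3 and 12.3 on day 7, log2 change 3.04, SE 0.751, adjusted p 0.0753). Isg15, a ubiquitin-like modifier, had 11.6, 11.2 and 5.81 FPKM on day 0 and 50.3, 95.5 and 49.4 on day 7, again without overlap and without a call (log2 change 2.60, SE 0.653, adjusted p 0.0772).

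Day 7 replicate 2 was the highest of the 6 samples in 24 of the 25 members, and day 0 replicate 3 the lowest in 23. The summed FPKM of the list was 184, 134 and 73.3 on day 0 and 500.0, 1095 and 441 on day 7, so the lowest day 7 sum was above the highest day 0 sum. In WT the sums were 325, 238 and 272 on day 0 and 795, 221 and 185 on day 7, which overlapped, and the median log2 change was 0.66. The difference between genotypes in the change was called for none of the 25 members (lowest adjusted p 0.145, 9 with an unadjusted p under 0.05, and 4 called by DESeq2). The number of members called was 0 without day 0 replicate 2, day 7 replicate 1 or day 7 replicate 2, 2 without day 0 replicate 1, WT day 7 replicate 2 or any WT day 0 replicate and 21 without WT day 7 replicate 1, with medians between 1.96 and 2.78 over the 12 omissions.

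**Figure D2:**
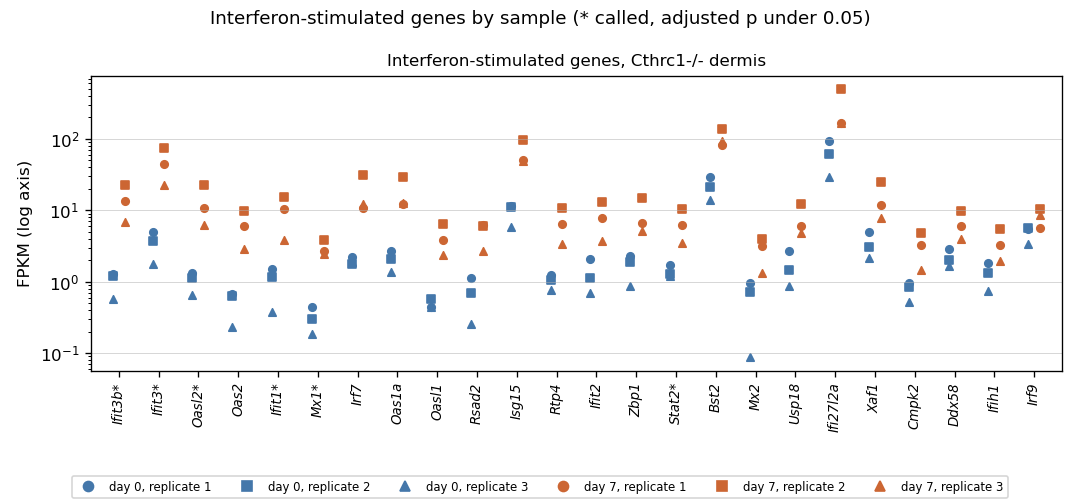
FPKM (log axis) of 24 of the 25 interferon-stimulated genes in the 3 day 0 (blue) and 3 day 7 (orange) samples of Cthrc1-/- dermis, ordered by log2 change, with marker shape giving the replicate and an asterisk a called gene. In each plotted gene except Irf9 the day 7 samples lie above all day 0 samples.

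A group of imprinted growth genes, which are expressed mainly from the maternal or the paternal copy and are best known from fetal and placental growth, was also higher on day 7. Of 16 members 5 rose (0.851% of all genes did) and none fell. All day 7 samples were above all day 0 samples in 13 of 16 (21.2% of all genes). With total-count scaling 10 were called higher, DESeq2 called 11 higher and 1 lower, and the median log2 change was 1.37. Mest (ENSMUSG00000051855, chr6:30723547-30748465), a paternally expressed gene of the hydrolase fold family, had 0.693, 0.56 and 0.251 FPKM on day 0 and 28.4, 16.3 and 22.2 on day 7. Its day 7 values were far above every day 0 value (log2 change 5.27, SE 0.69, adjusted p 0.0184), a fitted rise of 38.6-fold. H19 (chr7:142575529-142578143), a maternally expressed long noncoding RNA and host of a microRNA, had 3.73, 2.52 and 2.46 FPKM on day 0 and 93.3, 110.0 and 75.2 on day 7. The rise of H19 amounted to a log2 change of 4.83 (SE 0.723, adjusted p 0.0215). Cdkn1c, an inhibitor of cyclin-dependent kinases, was even within each day, at 4.6, 4.44 and 5.55 FPKM on day 0 and 26.5, 26.9 and 20.8 on day 7. Cdkn1c was called with a log2 change of 2.20 (SE 0.385, adjusted p 0.0334). Grb10, an adaptor that dampens insulin and IGF receptor signalling, had 3.87, 2.57 and 1.36 FPKM on day 0 and 12.9, 11.1 and 10.7 on day 7. All day 7 samples lay above all day 0 samples for Grb10, with a log2 change of 1.97 (SE 0.352, adjusted p 0.0346). Plagl1, a zinc finger transcription factor that regulates other imprinted genes, had 1.72, 1.49 and 0.753 FPKM on day 0 and 5.16, 6.32 and 4.12 on day 7. Plagl1 had a fitted log2 change of 1.80 (SE 0.374, adjusted p 0.0485).

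The growth factor gene Igf2, next to H19 on chromosome 7, stood at 0.04, 1.23 and 1.13 FPKM on day 0 and 10.8, 8.09 and 4.49 on day 7 and was not called (adjusted p 0.0953). Dlk1 and Meg3, neighbours of opposite parental expression on chromosome 12, were separated between days without a call. Dlk1, a Notch-like surface protein of progenitor cells, had 0.152, 0.0968 and 0.0374 FPKM on day 0 and 5.5, 3.06 and 1.41 on day 7 (adjusted p 0.0579), and the noncoding Meg3 had 3.24, 1.53 and 0.588 FPKM on day 0 and 25.5, 13.5 and 7.88 on day 7 (adjusted p 0.0514). Phlda2, a maternally expressed gene that restrains placental growth, was the member with a log2 change below 0 (4.39, 9.39 and 15.1 FPKM on day 0, 3.19, 2.22 and 5.18 FPKM on day 7, adjusted p 0.107). In WT the median log2 change of the 16 genes was 0.35. The change differed between genotypes at an unadjusted p under 0.05 in 10 of the 16 members, but none was called after adjustment over all genes, and DESeq2 called 5. Fewer or more members were called when libraries were left out, namely 0 without day 0 replicate 2, day 7 replicate 1 or day 7 replicate 2, 2 without day 7 replicate 3, WT day 0 replicate 1 or WT day 0 replicate 3, 3 without WT day 0 replicate 2 or WT day 7 replicate 2 and 9 without WT day 7 replicate 1, with medians between 1.11 and 1.67.

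**Figure D3:**
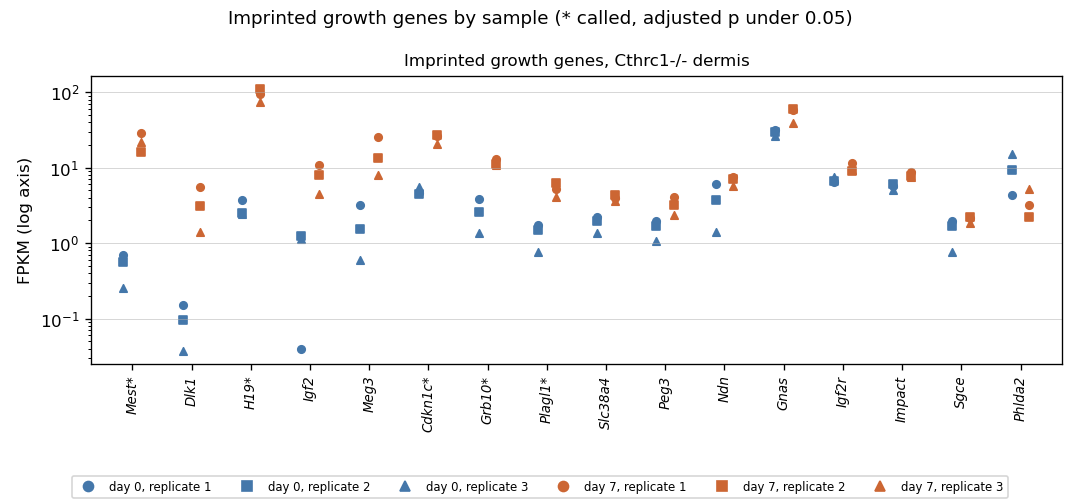
FPKM (log axis) of each imprinted growth gene in the 3 day 0 (blue) and 3 day 7 (orange) samples of Cthrc1-/- dermis, ordered by log2 change, with marker shape giving the replicate and an asterisk a called gene. Mest and H19 lie highest above their day 0 values among the 5 called genes, and Igf2 has a day 0 replicate 1 value of 0.04 FPKM below the other two.

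Some extracellular matrix genes were higher on day 7, and Col1a1 and Col3a1 were not among those called. Of 8 fibrillar collagen genes 1 was called, of 14 other collagens 2, of 20 genes of collagen processing 1, of 17 matricellular and glycoprotein genes 2, of 9 small leucine-rich proteoglycans 1 and of 20 matrix proteases and inhibitors 1, all of them upward (0.851% of all genes). In the same order of lists, total-count scaling gave 3, 6, 7, 5, 1 and 3 calls and DESeq2 3, 7, 8, 10, 1 and 5, also all upward. The called Col11a1, Col8a1, P4ha3, Ccn4, Fbn2 and Adam12 were below 1 FPKM in every day 0 sample. They passed the limit through day 7 alone, which tilts these counts toward rises. With a minimum of 5 FPKM edgeR gave 0, 4, 1, 0, 1 and 1 calls among 6, 12, 16, 14, 7 and 12 genes. Col1a1, the main chain of dermal collagen I, had 1033, 555 and 136 FPKM on day 0 and 1260.1, 884 and 1065 on day 7. The days overlapped, and day 0 alone spanned more than the difference between the days (log2 change 0.70, SE 0.57, adjusted p 0.561). Col3a1, the fibrillar collagen of early granulation tissue, had 514, 291 and 66.9 FPKM on day 0 and 1175, 693 and 525 on day 7 (adjusted p 0.323), with its day 0 value lowest in replicate 3. Day 0 replicate 3 was the lowest of the 6 samples in all 8 fibrillar collagens and in all 14 other collagens, as it was in fibroblast markers. Without that sample the median log2 change of the fibrillar collagens was 0.93 in place of 1.36.

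Col11a1, a minor fibrillar chain that helps set fibril diameter, had 0.487, 0.57 and 0.333 FPKM on day 0 and 2.22, 1.62 and 1.56 on day 7 and rose (log2 change 1.78, SE 0.363, adjusted p 0.0446). Col12a1, which coats fibrils as a FACIT collagen, had 3.56, 5.69 and 1.83 FPKM on day 0 and 19.3, 18.5 and 36.8 on day 7. The 3 day 7 values of Col12a1 were all higher, with a log2 change of 2.56 (SE 0.484, adjusted p 0.0402). Col8a1, a short-chain network collagen of vessels and wounds, had 0.884, 0.804 and 0.281 FPKM on day 0 and 6.29, 3.55 and 5 on day 7. The log2 change of Col8a1 was 2.72 (SE 0.531, adjusted p 0.0431). The prolyl hydroxylase subunit gene P4ha3 was close to absent on day 0, at 0.254, 0.0417 and 0.0884 FPKM, and stood at 4.28, 3.64 and 4.92 FPKM on day 7 (log2 change 4.83, SE 0.762, adjusted p 0.0225). Other enzymes of collagen maturation did not pass the test, among them the lysyl oxidase-like gene Loxl1 (12, 11.8 and 4.54 FPKM on day 0 and 51.4, 34 and 37.8 on day 7, adjusted p 0.0655). The chaperone gene Serpinh1, the most abundant member of that list, had 51.3, 116 and 62.7 FPKM on day 0 and 166, 142 and 271 on day 7 (adjusted p 0.34). The number of called genes among the 14 other collagens was 0 without day 0 replicate 2, day 7 replicate 1, day 7 replicate 2, day 7 replicate 3, WT day 7 replicate 2 or any WT day 0 replicate, 1 without day 0 replicate 1, 4 without WT day 7 replicate 3 and 6 without WT day 7 replicate 1.

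Ccn4, a matricellular gene known as a target of Wnt signalling, had 0.619, 0.87 and 0.482 FPKM on day 0 and 3.94, 3.71 and 5.4 on day 7 and rose (log2 change 2.56, SE 0.379, adjusted p 0.0215). The microfibril gene Fbn2, used mainly in developing tissue, had 0.645, 0.528 and 0.496 FPKM on day 0 and 3.27, 2.21 and 2.22 on day 7. For Fbn2 the log2 change was 2.04 (SE 0.356, adjusted p 0.0334). The fibronectin gene Fn1 was not called, with 16.6, 11.7 and 4.16 FPKM on day 0 and 68.8, 37.4 and 38.9 on day 7 and an adjusted p of 0.114, although its days did not overlap. Bgn, the proteoglycan biglycan, had 74.4, 73.9 and 40.2 FPKM on day 0 and 205, 169 and 194 on day 7 (log2 change 1.42, SE 0.281, adjusted p 0.0446), while the related decorin gene Dcn had 221, 129 and 51.1 FPKM on day 0 and 207, 155 and 86.8 on day 7 (adjusted p 0.987). Adam12, a metalloprotease of activated mesenchymal cells, had 0.833, 0.879 and 0.36 FPKM on day 0 and 8.79, 6.74 and 7.46 on day 7. This rise of Adam12 had a log2 change of 3.29 (SE 0.531, adjusted p 0.0238). Mmp2 and Timp2, the most abundant protease and inhibitor of their list, overlapped between the days, with Mmp2 at 132, 70.5 and 24.9 FPKM on day 0 and 176, 126 and 83.2 on day 7 (adjusted p 0.607). A few further matrix and secreted genes came from no list and were among the 12 largest rises of well expressed genes. Tnn, a tenascin of hair follicle and tendon matrix, had 1.59, 1.4 and 0.446 FPKM on day 0 and 10.5, 12.3 and 27.8 on day 7. The rise of Tnn amounted to a log2 change of 3.68 (SE 0.573, adjusted p 0.0217). Ccn3 had 2.29, 2.58 and 1.17 FPKM on day 0 and 26.2, 14 and 7.23 on day 7 (log2 change 2.80, SE 0.541, adjusted p 0.0425), and the leucine-rich repeat gene Lrrc17 had 3.36, 1.97 and 0.673 FPKM on day 0 and 25.4, 14.6 and 21.7 on day 7. Lrrc17 was called with a log2 change of 3.16 (SE 0.554, adjusted p 0.0334). The matricellular count was 0 without day 0 replicate 2, day 7 replicate 1 or day 7 replicate 2, 1 without day 7 replicate 3 or WT day 0 replicate 3 and 7 without WT day 7 replicate 1.

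Few members of the signalling pathways were called. Of all genes 0.851% were called higher and 0.591% lower. In the Wnt pathway, where secreted frizzled-related proteins bind and modulate Wnt ligands, 1 of 28 members was called. Sfrp2 (chr3:83766321-83774316) had 5.26, 2.7 and 4.68 FPKM on day 0 and 134, 55.9 and 30.9 on day 7, highest in day 7 replicate 1, and rose (log2 change 3.98, SE 0.563, adjusted p 0.0213). The pathway's transducer Ctnnb1 had 120.3, 171 and 179 FPKM on day 0 and 145, 121 and 151 on day 7 (adjusted p 0.387), and the antagonist gene Dkk2 had 8.94, 10.6 and 5.35 FPKM on day 0 and 2.62, 4.38 and 2.35 on day 7 (adjusted p 0.067). In the BMP pathway 2 of 16 members fell. Id2, a transcriptional inhibitor induced by BMP receptors, had 38.6, 36.6 and 34.8 FPKM on day 0 and 19.2, 18.8 and 22.1 on day 7, with little spread in either group (log2 change -1.03, SE 0.14, adjusted p 0.0209). Nog, a secreted BMP antagonist that promotes hair growth, had 2.75, 1.85 and 1.32 FPKM on day 0 and 0.497, 0.478 and 0.687 on day 7. All day 7 samples lay below all day 0 samples for Nog, with a log2 change of -2.0 (SE 0.308, adjusted p 0.0215). The ligand gene Bmp4 went the other way without a call (2.52, 3.54 and 3.33 FPKM on day 0 and 12.8, 9.27 and 12.2 on day 7, adjusted p 0.0843). In the Notch pathway 1 of 17 members rose, the endothelial target gene Hey2 (0.618, 0.963 and 0.798 FPKM on day 0 and 2.25, 1.74 and 2.31 on day 7, log2 change 1.25, SE 0.242, adjusted p 0.043), while the target Hes1 had 59.7, 37.9 and 42.3 FPKM on day 0 and 22.7, 26.5 and 31.5 on day 7 (adjusted p 0.0916). Of 21 TGF-beta pathway members none was called by edgeR (4 had an unadjusted p under 0.05), while DESeq2 called 2 higher and 2 lower, with the endothelial co-receptor gene Eng at 10.8, 13.5 and 6.55 FPKM on day 0 and 26.7, 36.5 and 23.5 on day 7 and the matrix target gene Tgfbi at 154, 109 and 52.1 FPKM on day 0 and 95.1, 125 and 110.0 on day 7. DESeq2 called 2 Wnt members higher and 4 lower, 1 BMP member higher and 5 lower, and 3 Notch members higher and 1 lower. With total-count scaling 2 Wnt and 3 Notch members were called, all higher, with 1 TGF-beta member higher, and 1 BMP member higher and 2 lower. The BMP count of falls was 0 without day 0 replicate 2, day 7 replicate 1 or day 7 replicate 2 and 4 without WT day 7 replicate 1.

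Vessel genes were higher on day 7. Of 11 endothelial markers 2 were called higher (0.851% of all genes), and 9 had all day 7 samples above all day 0 samples (21.2% of all genes). Total-count scaling gave 7 calls and DESeq2 7, and the median log2 change was 1.57. Tie1, an endothelial receptor tyrosine kinase, had 5.91, 6.4 and 2.79 FPKM on day 0 and 18.6, 23.7 and 17.6 on day 7. Tie1 had a fitted log2 change of 1.81 (SE 0.361, adjusted p 0.0446). Egfl7, a factor secreted by endothelium, had 7.14, 8.73 and 4.82 FPKM on day 0 and 21.3, 29.5 and 19.1 on day 7. The 3 day 7 values of Egfl7 were all higher, with a log2 change of 1.58 (SE 0.318, adjusted p 0.0446). The junction gene Cdh5 had 9.5, 11.3 and 4.05 FPKM on day 0 and 35, 46.2 and 25.9 on day 7 and Pecam1 had 14.1, 16.8 and 6.3 FPKM on day 0 and 36.2, 53.1 and 28.8 on day 7, both separated and neither called (adjusted p 0.0779 and 0.11). Aplnr, the apelin receptor of sprouting vessels, was outside the list and rose from 1.36, 2.46 and 1.12 FPKM to 19.7, 23.5 and 17.1 FPKM (log2 change 3.44, SE 0.553, adjusted p 0.0238). Day 7 replicate 2 was the highest sample in 11 of 11 endothelial markers and day 0 replicate 3 the lowest in 11, so the summed FPKM was 76.8, 84.1 and 30.0 on day 0 and 180.5, 251 and 151 on day 7. Pericyte markers gave 71.5, 69.2 and 38.6 and 145, 175 and 134 FPKM, and none of their 6 members was called by edgeR (4 with an unadjusted p under 0.05), but 2 were by DESeq2 and 2 with total-count scaling, with Rgs5 at 28.2, 25.7 and 9.97 FPKM on day 0 and 68.6, 82.8 and 65.3 on day 7 (adjusted p 0.063). The contractile gene Acta2, of myofibroblasts and vessel smooth muscle, had 85.2, 57.1 and 41.4 FPKM on day 0 and 165, 169 and 239.7 on day 7 and rose (log2 change 1.47, SE 0.277, adjusted p 0.0402), the only called member of 9 in its list, against 2 with total-count scaling and 3 by DESeq2. Without day 0 replicate 3 the endothelial median was 1.21, and the endothelial calls were 0 without day 0 replicate 1, day 0 replicate 2, day 7 replicate 1, day 7 replicate 2, day 7 replicate 3, WT day 7 replicate 2 or any WT day 0 replicate and 6 without WT day 7 replicate 1.

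Myeloid genes were also higher in part, with fewer calls. Trem2, a lipid-sensing receptor of tissue macrophages, had 0.503, 0.428 and 0.443 FPKM on day 0 and 3.2, 3.08 and 4.42 on day 7, even within each day, and rose (log2 change 2.79, SE 0.411, adjusted p 0.0215). It was the single call among 15 macrophage markers (0.851% of all genes were called higher). Trem2 passed the limit of 1 FPKM through day 7 alone, and with a minimum of 5 FPKM 0 of 12 macrophage markers were called. After TMM scaling 8 of the 15 were separated upward (13.6% of all genes). In FPKM 10 were (21.2% of all genes), such as Lyz2 at 138, 85.5 and 50.5 FPKM on day 0 and 298, 297 and 326 on day 7 (adjusted p 0.131). The macrophage count was 6 with total-count scaling, 6 higher and 1 lower by DESeq2, 0 without day 0 replicate 2, day 7 replicate 1 or day 7 replicate 2, 3 without WT day 7 replicate 3 and 6 without WT day 7 replicate 1. Retnla, a marker of alternatively activated macrophages, had 49.6, 28.5 and 5.28 FPKM on day 0 and 4.18, 8.67 and 2.76 on day 7, with overlapping days (adjusted p 0.0932). The summed macrophage FPKM was 402, 282 and 214 on day 0 and 709, 778 and 739 on day 7. Neutrophil markers summed to 125, 80.4 and 28.1 FPKM and 1309, 489 and 741 FPKM, without overlap, but none of the 6 members was called by edgeR (3 with an unadjusted p under 0.05, 2 called by DESeq2). S100a9, the calprotectin subunit that dominates that sum, had 62.7, 40.5 and 11.4 FPKM on day 0 and 749.9, 248 and 385 on day 7 (adjusted p 0.217), a spread within day 7 of the same order as the difference. Of 25 chemokine and receptor genes 1 rose (0.851% of all genes did), against 2 higher and 1 lower with total-count scaling and 3 and 1 by DESeq2. It was the T cell attractant Ccl5 (0.422, 0.336 and 0.0719 FPKM on day 0 and 4.01, 5.81 and 3.64 on day 7, log2 change 3.74, SE 0.748, adjusted p 0.0446). Ccl5 too passed the limit through day 7 alone, and with a minimum of 5 FPKM 0 of 16 genes of this list were called. Cxcl14, a chemokine of resting skin, had 315, 312 and 227 FPKM on day 0 and 71.5, 70.3 and 97.5 on day 7 without a call (adjusted p 0.0572). Lgals3bp, a secreted galectin-binding glycoprotein, had 5.4, 4.77 and 2.35 FPKM on day 0 and 46.5, 68.3 and 17.9 on day 7. The log2 change of Lgals3bp was 3.23 (SE 0.656, adjusted p 0.0446).

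**Figure D4:**
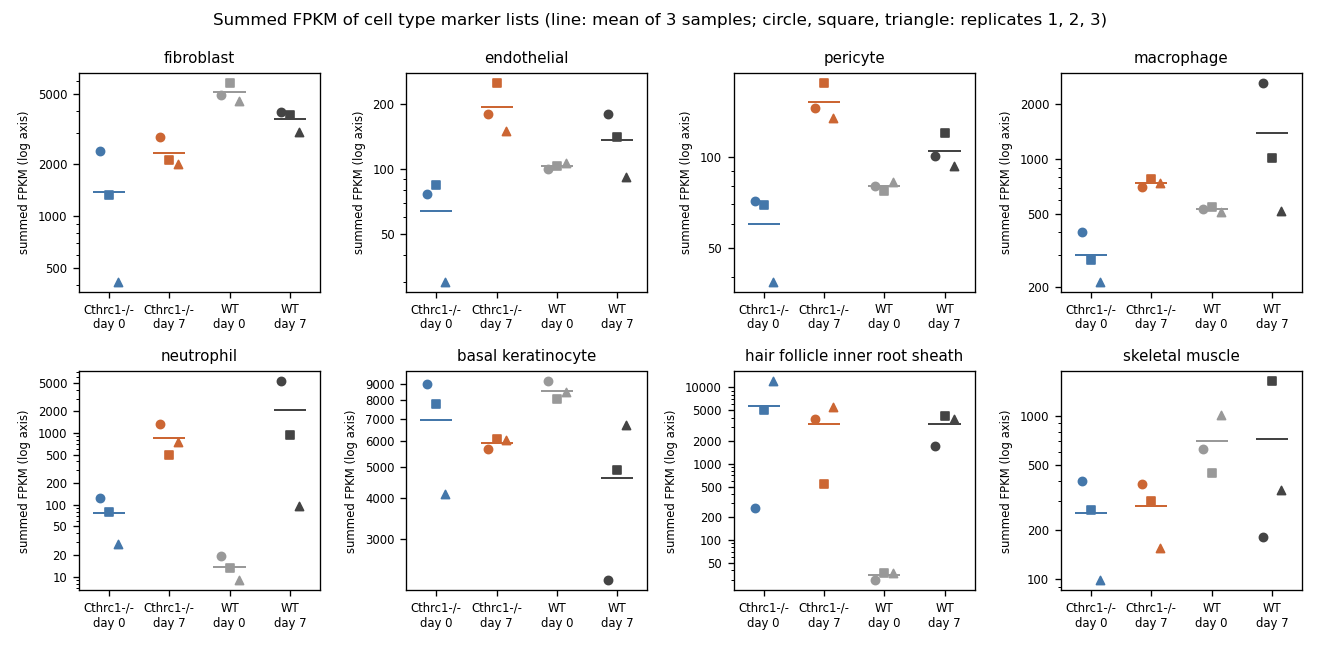
Summed FPKM (log axis) of all matched genes of 8 cell type marker lists in each sample of the 4 groups, with a line at the mean of each group of 3 (WT in grey and black). The sums include listed genes that are not members. In Cthrc1-/- dermis the endothelial, pericyte, macrophage and neutrophil sums of day 7 lie above those of day 0, and the hair follicle inner root sheath sum spans 264 to 11906 FPKM within day 0.

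Immediate early genes, which encode short-lived transcription factors and regulators induced within minutes of a stimulus, were lower on day 7. Of 24 members 4 fell (0.591% of all genes did) and none rose, 9 lay entirely below day 0 in FPKM (4.97% of all genes did), and the log2 change was below 0 in all 24 with TMM scaling, with a median of -1.29. After TMM scaling 10 of the 24 lay entirely below day 0 (10.5% of all genes did). Egr2, a zinc finger factor, had 40.6, 37.1 and 25.2 FPKM on day 0 and 4.95, 2.51 and 1.55 on day 7, with the largest fall of the 4 (log2 change -3.68, SE 0.537, adjusted p 0.0215). Nr4a1, an orphan nuclear receptor, had 254, 169 and 84.3 FPKM on day 0 and 43.8, 54.2 and 30.7 on day 7. For Nr4a1 the log2 change was -2.16 (SE 0.394, adjusted p 0.0364). The AP-1 subunit gene Jund had 346, 303 and 225 FPKM on day 0 and 121, 135 and 118 on day 7 (log2 change -1.39, SE 0.21, adjusted p 0.0215), and Ier2 had 279, 213 and 169 FPKM on day 0 and 95.5, 124 and 83.5 on day 7. This fall of Ier2 had a log2 change of -1.29 (SE 0.247, adjusted p 0.0418). Fos, the classic member, overlapped between the days at 551, 384 and 248 FPKM on day 0 and 179.8, 328 and 105 on day 7 (adjusted p 0.192). Day 0 replicate 1 was the highest sample in 22 of the 24 genes and day 7 replicate 3 the lowest in 21. In WT the median log2 change was -1.51, and the difference in change between genotypes was called for none of the 24 (3 with an unadjusted p under 0.05, 0 by DESeq2). The number called lower was 10 by DESeq2, 0 without day 0 replicate 2 or day 7 replicate 2, 1 without day 7 replicate 1 or day 7 replicate 3, 2 without WT day 7 replicate 2 or any WT day 0 replicate, 8 without WT day 7 replicate 1 and 10 without day 0 replicate 3.

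Heat shock genes, whose products fold and protect proteins, showed smaller falls. Of 15 members 5 fell (0.591% of all genes did) and none rose, 10 were entirely below day 0 in FPKM (4.97% of all genes), and the median log2 change was -0.65. After TMM scaling 10 were also entirely below day 0 (10.5% of all genes). Hspb1, a small heat shock protein gene abundant in keratinocytes, had 459, 719 and 709 FPKM on day 0 and 228, 216 and 244 on day 7. The fall of Hspb1 amounted to a log2 change of -1.60 (SE 0.25, adjusted p 0.0217). The inducible cytosolic chaperone gene Hsp90aa1 had 80.8, 68.2 and 73.5 FPKM on day 0 and 46.6, 44.5 and 41.5 on day 7 (log2 change -0.90, SE 0.126, adjusted p 0.0213), and its constitutive relative Hsp90ab1 had 723, 684 and 782 FPKM on day 0 and 513, 520.0 and 588 on day 7. Hsp90ab1 was called with a log2 change of -0.58 (SE 0.121, adjusted p 0.0467). Hspd1, the mitochondrial chaperonin, had 73.5, 76.1 and 112 FPKM on day 0 and 61.6, 54.4 and 63.2 on day 7. All day 7 samples lay below all day 0 samples for Hspd1, with a log2 change of -0.68 (SE 0.131, adjusted p 0.0417). Hsph1, a nucleotide exchange factor for HSP70, had 7.2, 6.78 and 9.95 FPKM on day 0 and 6, 5.16 and 5.99 on day 7. Hsph1 had a fitted log2 change of -0.62 (SE 0.126, adjusted p 0.0446). The near-identical inducible genes Hspa1a and Hspa1b, which may share reads, were not called (adjusted p 0.175 and 0.221). With total-count scaling 2 of the 5 remained called and all 15 log2 changes stayed below 0, and DESeq2 called 9 lower. The calls were 0 without day 0 replicate 2, day 7 replicate 1 or day 7 replicate 2, 1 without day 7 replicate 3, 2 without WT day 7 replicate 2 or any WT day 0 replicate, 3 without day 0 replicate 1 and 9 without day 0 replicate 3. In WT the median log2 change was -0.64, with 9 of the 15 called between days. The difference in change between genotypes was called for none of the 15 (2 with an unadjusted p under 0.05, 1 called by DESeq2).

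**Figure D5:**
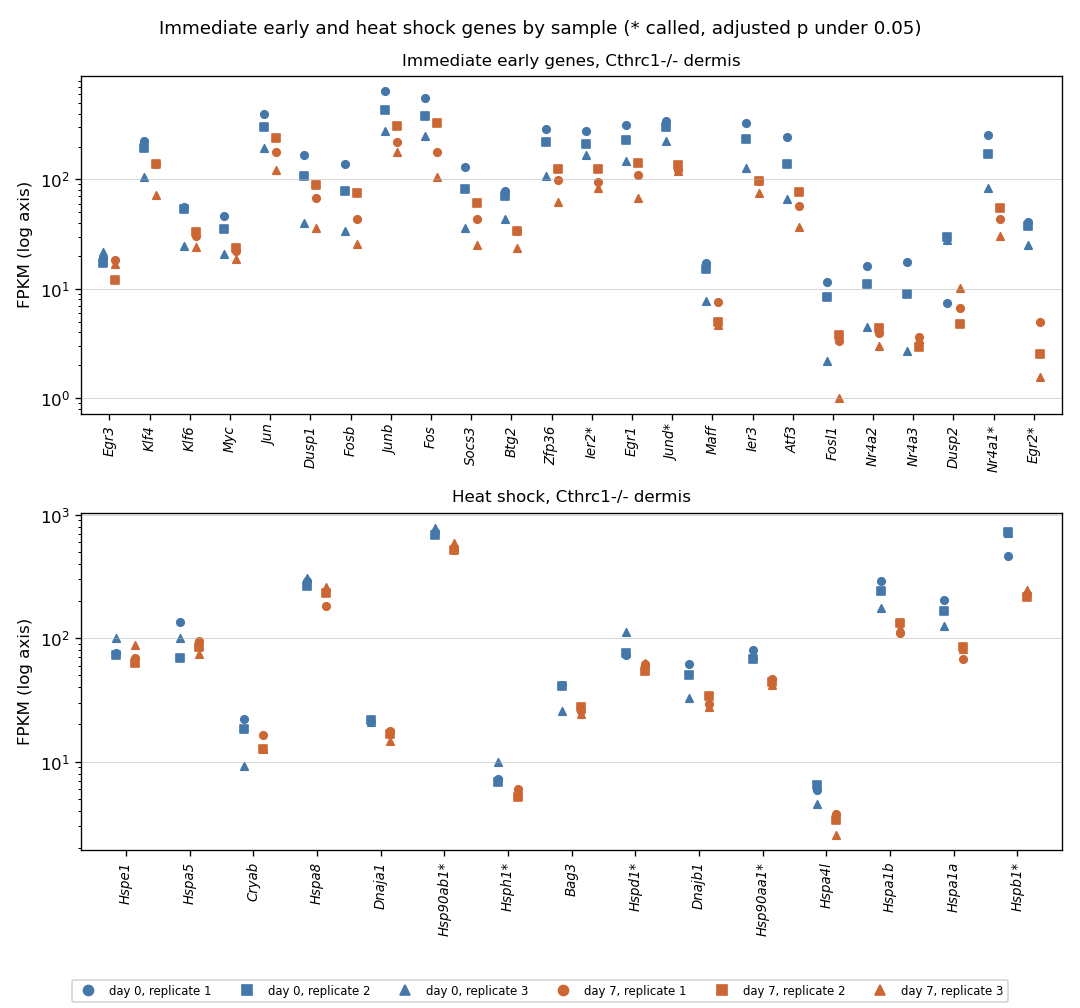
FPKM (log axis) of each immediate early gene (upper panel) and heat shock gene (lower panel) in the 3 day 0 (blue) and 3 day 7 (orange) samples of Cthrc1-/- dermis, ordered by log2 change, with marker shape giving the replicate and an asterisk a called gene. Egr2 falls from 40.6, 37.1 and 25.2 FPKM to 4.95, 2.51 and 1.55 FPKM.

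Genes best known as secreted products of the liver were lower on day 7 in most members. Their summed FPKM was 75.4, 70.8 and 84.9 on day 0 and 25.8, 26.6 and 15.6 on day 7. Of 19 listed genes 11 were members, since the limit of 1 FPKM is a mean over both days. The 6 called members, Alb, Apoa1, Hpx, Ttr, Fabp1 and Serpina3k, were below 1 FPKM in every day 7 sample. They passed the limit through their day 0 values alone, which tilts the counts and the median toward falls. Of the 11 members 6 fell (0.591% of all genes did), with 7 by total-count scaling and 8 by DESeq2. In 9 the day 7 samples lay entirely below day 0 in FPKM (4.97% of all genes), and in 9 after TMM scaling (10.5% of all genes). The median log2 change was -4.39, also with the genes at 0 on day 7 set to their bound. Alb (ENSMUSG00000029368, chr5:90460897-90476602), serum albumin, had 15.6, 18.4 and 33.5 FPKM on day 0 and 0.101, 0.0353 and 0.0929 on day 7. The 3 day 7 values of Alb were all lower, with a log2 change of -8.25 (SE 0.646, adjusted p 0.000939). It was called in all 24 other settings tried. The apolipoprotein gene Apoa1 had 6.96, 5.29 and 6.3 FPKM on day 0 and 0.142, 0.416 and 0.41 on day 7 (log2 change -4.39, SE 0.741, adjusted p 0.0302), and the haem scavenger gene Hpx had 1.98, 2.01 and 2.65 FPKM on day 0 and 0.457, 0.684 and 0.322 on day 7. The log2 change of Hpx was -2.30 (SE 0.46, adjusted p 0.0446). Ttr, a thyroxine carrier, had 2.81, 4.41 and 3.64 FPKM on day 0 and 0, 0 and 0.0433 on day 7 (adjusted p 0.0213). Fabp1, a fatty acid binding protein, had 2.75, 1.94 and 3.36 FPKM on day 0 and no count on day 7, at least 36.8-fold lower against 3 counts per library (adjusted p 0.0215). Serpina3k, a serine protease inhibitor, had 3.06, 1.66 and 1.64 FPKM and likewise no count on day 7, at least 108-fold lower (adjusted p 0.0215). WT dermis gave a median log2 change of -6.87 in the same genes, with list sums of 159, 92.7 and 115 FPKM on day 0 and 52.9, 29.6 and 14.6 FPKM on day 7. The source of these transcripts was not tested. The number called was 1 without day 0 replicate 2, day 7 replicate 1 or day 7 replicate 2.

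Among the other large falls were keratin, cornified envelope and secreted protein genes. Krt42, a type I keratin of hair follicle and nail, had 5.37, 19.2 and 13.6 FPKM on day 0 and 0.349, 0.586 and 0.269 on day 7. For Krt42 the log2 change was -5.09 (SE 0.822, adjusted p 0.0238). Wfdc3, of the whey acidic protein family, had 25.9, 10.5 and 3.77 FPKM on day 0 and 0.365, 1.24 and 0.244 on day 7, with day 0 values that spread widely (log2 change -4.62, SE 0.919, adjusted p 0.0446). Wfdc3 was the call among 14 skin antimicrobial genes (0.591% of all genes were called lower), against 2 lower with total-count scaling and 3 by DESeq2. Sprr4, a small proline-rich protein of the cornified envelope, had 115, 246 and 126 FPKM on day 0 and 37.5, 48.6 and 19.1 on day 7. This fall of Sprr4 had a log2 change of -2.37 (SE 0.466, adjusted p 0.0446). Smoc1, a secreted calcium-binding protein that acts on BMP signalling, had 10.8, 18.6 and 6.17 FPKM on day 0 and 1.75, 3.04 and 2.85 on day 7. The fall of Smoc1 amounted to a log2 change of -2.39 (SE 0.431, adjusted p 0.0351). The serine protease gene Prss22 had 8.77, 22.6 and 18.5 FPKM on day 0 and 3.67, 6.18 and 2.71 on day 7 (log2 change -2.13, SE 0.433, adjusted p 0.0446), and Gpx2, an epithelial glutathione peroxidase, had 13, 25.5 and 16.9 FPKM on day 0 and 5.08, 6.19 and 7.62 on day 7. Gpx2 was called with a log2 change of -1.71 (SE 0.274, adjusted p 0.0238). The mitochondrial tRNA genes mt-Tl1, at 148, 132 and 98.3 FPKM on day 0 and 39.4, 57.1 and 36.1 on day 7, and mt-Tc, at 48, 37.7 and 25 FPKM on day 0 and 11, 17.8 and 11.7 on day 7, fell by 1.67 and 1.61 on the log2 scale (adjusted p 0.0341 and 0.0446).

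Members of the hair follicle lists gave no call, and their day 0 values spanned most of their range. Krt42, called lower above, is in none of these lists. Krt71, a keratin of the inner root sheath, had 66.1, 1526 and 3950.0 FPKM on day 0 and 1293, 169 and 1794 on day 7 (adjusted p 0.723), lowest in day 0 replicate 1 and highest in day 0 replicate 3. None of the 12 inner root sheath, 13 hair shaft or 13 hair matrix and cycle members was called by edgeR (0, 0 and 2 with an unadjusted p under 0.05), and DESeq2 called 0, 0 and 1. Day 0 replicate 3 was the highest of the 6 samples in all 12 inner root sheath and all 13 hair shaft members. In WT the inner root sheath sum was 29.5, 37 and 36.4 FPKM on day 0 and 1710.5, 4186 and 3877 FPKM on day 7, a median log2 change of 9.73 against -0.92 in Cthrc1-/- dermis. The Cthrc1-/- median was 0.00082 without day 0 replicate 3, -0.40 without day 7 replicate 2, -1.47 without day 0 replicate 1 and -1.52 without day 7 replicate 3. The interaction was called for none of the 12 by edgeR (11 with an unadjusted p under 0.05) and for 11 by DESeq2.

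Several broad programmes gave no gene called by edgeR. Proliferation genes had a median log2 change of 0.21 over 29 members, none called by edgeR (5 with an unadjusted p under 0.05) and 1 by DESeq2, with the replication clamp gene Pcna at 61.9, 49.5 and 58.9 FPKM on day 0 and 55.9, 54.1 and 59.6 on day 7 and the mitotic activator Cdc20 at 25, 19.7 and 37.9 FPKM on day 0 and 30.4, 30.9 and 41.9 on day 7. In WT their median log2 change was 1.42, and the interaction had an unadjusted p under 0.05 in 26 of the 29 genes, with 18 called by DESeq2 and 0 by edgeR. WT day 0 had the lowest sums of this list, 185, 165 and 151 FPKM, against 299.8, 254 and 435 FPKM in Cthrc1-/- day 0. Of 20 hypoxia and glycolysis genes none was called by edgeR or DESeq2 (0 with an unadjusted p under 0.05), with Aldoa at 189, 227 and 169.6 FPKM on day 0 and 189.8, 234 and 184 on day 7. Of 20 nuclear oxidative phosphorylation genes and 24 cytoplasmic ribosomal protein genes none was called by edgeR (2 and 3 with an unadjusted p under 0.05), DESeq2 called 1 and 2 lower, and their medians were -0.18 and -0.19. Among 16 cytokines and alarmins none was called by edgeR (4 with an unadjusted p under 0.05) and 1 was called higher by DESeq2, and the NF-kB inhibitor gene Nfkbia had 343, 229.9 and 106 FPKM on day 0 and 110.0, 135 and 78.4 on day 7 (adjusted p 0.188). The sebaceous gland list had 7 of 10 members with an unadjusted p under 0.05, all lower, and no call by edgeR, while DESeq2 and edgeR without day 0 replicate 3 each called 3 lower, with Mgst1 at 156, 94.1 and 96.9 FPKM on day 0 and 66.4, 57.8 and 76.8 on day 7 (adjusted p 0.0642). Adipocyte, skeletal muscle, T cell, mast cell, melanocyte, nerve, MHC class II and keratinocyte lists had no member called by edgeR either, and their medians lay between -0.45 and 1.51. These lists had 14 members with an unadjusted p under 0.05. DESeq2 called 1 T cell, 1 mast cell and 1 wound keratinocyte gene higher and 1 nerve, 1 basal keratinocyte and 1 wound keratinocyte gene lower, and total-count scaling called 1 T cell and 1 mast cell gene higher.

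Whether the change between days differed from that in WT was tested by the interaction of genotype and day, and 2 genes were called (0.0141% of 14216, with 2161 at an unadjusted p under 0.05). Both lie on chromosome 5, 600.4 kb apart. Pds5a (ENSMUSG00000029202, chr5:65605721-65698273), a cohesin regulator, had 4.76, 4.81 and 6.07 FPKM on day 0 and 2.12, 1.84 and 1.81 on day 7 in Cthrc1-/- dermis and 2.04, 1.93 and 1.88 FPKM on day 0 and 1.7, 1.97 and 2.51 FPKM on day 7 in WT. The Cthrc1-/- day 0 samples were the high ones, and the change between days was lower than in WT by a log2 difference of -1.46 (adjusted p 0.0405). Apbb2 (ENSMUSG00000029207, chr5:66298703-66618784), an adaptor that binds the amyloid precursor protein, had 0.42, 0.557 and 0.25 FPKM on day 0 and 2.43, 3 and 2.57 on day 7 in Cthrc1-/- dermis, and 2.43, 2.47 and 2.48 FPKM on day 0 and 0.845, 0.687 and 0.591 FPKM on day 7 in WT. It rose between days in the knockout (log2 change 2.52, SE 0.312, adjusted p 0.0137) and fell in WT, with a log2 difference of 4.48 (adjusted p 0.0148). The number of interaction genes was 0 without day 7 replicate 1, day 7 replicate 3, WT day 0 replicate 2, WT day 0 replicate 3 or WT day 7 replicate 3, 1 without day 0 replicate 2, 4 without WT day 0 replicate 1, 5 without day 0 replicate 3 and 262 without day 0 replicate 1. Between days in WT 1869 genes (13.1%) were called.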

How the data were processed

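Poly(A) RNA of 12 dermis samples was sequenced as dUTP strand-specific paired-end libraries whose adapters carried molecular identifiers, per the labels' protocols. The submitters' processing notes name cutadapt 1.9, HISAT2 2.0.4, UMI-tools, StringTie 1.3.4d, DESeq2, edgeR and GRCm38, without role or order. The authors deposited 1 table of whole-number counts and FPKM values for 55401 genes. Every count of 0 carries an FPKM of 0.0001 there, printed here as 0, and counts at multiples of 4 are overrepresented. Per-sample columns left unused numbered 0. Symbols and positions come from GENCODE M21 (GRCm38), which named 55141 IDs, and promoter sequences from RefSeq.

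Deposited counts of the 14216 members were tested in edgeR 4.0.16 (glmQLFit, glmQLFTest, TMM, two-sided) on all 12 samples with a mean per group, and p-values were adjusted by Benjamini-Hochberg over all members. "Adjusted p" refers to this test, and a gene was called under 0.05. "Rose" and "fell" are used of called genes. Standard errors (SE) were derived from the F statistic. Summed FPKM values of a list cover all its matched genes, including those below the limit for members. On simulated counts for the Cthrc1-/- comparison of 14216 genes, 72% of 200 genes changed by a log2 of 2 were recovered, with 6.49% false calls. Those counts were independent, with the same spread of a gene in all 4 groups. They lacked the unequal spread of the groups and the library-wide differences seen here, so the false calls in these data were not estimated. Named genes were Cthrc1, the 12 largest rises and 12 largest falls among called genes with a mean of at least 5 FPKM, no placeholder symbol and no overlap, the called members of 43 gene lists (685 of 687 entries matched), and, in lists with fewer than 2 calls, abundant members. The members and lists were chosen with earlier results of these data known. Other members given without a call were chosen after their values were seen. The limit of 3 counts given for genes at 0 covers counting error only. Alternatives were DESeq2 1.42.0, limma 3.58.1 on log2(FPKM + 1) and log2(FPKM + 0.1), other samples, scalings, filters and covariates, and each sample left out. Replicates are separate biological samples per the labels. Values of 1 member of the interferon list are not reported here.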

Additional observations from a re-analysis of the deposited data

Results flagged for a closer look

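The change between days differed between genotypes, by the interaction test of edgeR, in the cohesin regulator gene Pds5a by a log2 value of -1.46 (Cthrc1-/- change minus WT change, adjusted p 0.0405) and in the adaptor gene Apbb2 by 4.48 (adjusted p 0.0148). Pds5a fell in Cthrc1-/- dermis by 1.58 on the log2 scale, in 3 of 3 samples below every day 0 sample, and its change in WT was -0.12. Apbb2 rose in Cthrc1-/- dermis by 2.52 and fell in WT by 1.96 (adjusted p 0.00611), so that Cthrc1-/- day 7 and WT day 0 had similar levels (2.43, 3 and 2.57 FPKM and 2.43, 2.47 and 2.48 FPKM). Groups of 3 samples are too small for the outlier test used on larger groups, which was not run.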

How the results depend on the processing

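Across 24 other settings none of 58 called and 36 uncalled genes followed changed sign where it was tested (the minimum of 5 FPKM left 38 and 34 of them), and Alb stayed called in all 24. The called genes had no overlap between days, so leaving out 1 sample could not reverse the order of their FPKM values. The 36 were picked and leave out genes with little change such as Dcn. Some list medians changed sign over the settings, from -1.52 to 0.76 for inner root sheath and from -1.04 to 0.04 for adipocyte genes. Against 205 genes called, 121 higher and 84 lower, DESeq2 called 1372 (741 higher, 631 lower), limma on log2(FPKM + 1) 770 (657 higher) and on log2(FPKM + 0.1) 759 (658 higher), and total-count scaling 744 (647 higher). The hair follicle score as covariate gave 362 (185 higher, 177 lower), the skeletal muscle score 306 with 183 higher, and the 6 Cthrc1-/- samples alone 81 (59 higher, 22 lower), 43 of them shared. The filters on low values and counts divided by 4 kept the count within 1.5 times, at 159 to 214. For the interaction, with 2 genes called, DESeq2 called 675, limma 1 with either pseudocount, total-count scaling 1 and no filter 1, while a minimum of 5 FPKM, which removes both genes, and either covariate left 0. Leaving out 1 sample gave 5 to 856 genes called, 2 to 556 higher and 3 to 339 lower, and 0 to 262 for the interaction. With the 6 Cthrc1-/- samples alone, 20 of the 58 called genes followed kept their call. The median standard deviation of log2 values ranged from 0.136 (WT day 0) to 0.324 (Cthrc1-/- day 0) by group. The causes were not tested.

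With the replicate number within genotype as a block, 1 gene was called, Alb, with 0 higher and 1 lower, and 0 for the interaction. Whether the numbers pair the samples is not known. Deviations from the group means of same-numbered Cthrc1-/- samples correlated at -0.082, -0.136 and 0.450 across genes. Those of differently numbered samples correlated at -0.473 to 0.541. With 3 samples per group centred on their mean, these values cannot decide the pairing. The blocked fit therefore remains an alternative, and why calls were lost under it was not tested. Depth limits the lowest genes, since 3 counts correspond to 0.0423 to 0.0621 CPM.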

Other observations

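The genes in the next paragraphs belong to no list and were picked with their values in view, so nothing is tested on them as a group. Several called genes known from blood vessels rose on day 7 beside Tie1, Egfl7 and Aplnr. Clec14a, a C-type lectin of tumour and sprouting endothelium, had 1.89, 2.32 and 1.34 FPKM on day 0 and 10.9, 12.6 and 8.95 on day 7. All day 7 samples lay above all day 0 samples for Clec14a, with a log2 change of 2.38 (SE 0.295, adjusted p 0.0137). Sox18, a transcription factor of vessel and lymphatic development, had 8.6, 10.7 and 5.69 FPKM on day 0 and 31.1, 50.2 and 28.9 on day 7. Sox18 had a fitted log2 change of 1.97 (SE 0.29, adjusted p 0.0215). Erg, an ETS factor that maintains endothelial identity, had 1.56, 1.74 and 1.29 FPKM on day 0 and 5.13, 6.5 and 3.37 on day 7 (log2 change 1.55, SE 0.316, adjusted p 0.0447), and the gap junction gene Gja4 of arterial endothelium had 4.34, 4.64 and 3.25 FPKM on day 0 and 10.8, 16.6 and 13.7 on day 7. The 3 day 7 values of Gja4 were all higher, with a log2 change of 1.59 (SE 0.283, adjusted p 0.0346). Gpihbp1, which carries lipoprotein lipase across capillary walls, had 4.2, 3.89 and 2.2 FPKM on day 0 and 11.9, 17.7 and 13.9 on day 7, Ephb4, a venous ephrin receptor, had 6.97, 7.39 and 9.45 FPKM on day 0 and 14.2, 18.3 and 20.2 on day 7, and the basement membrane gene Nid2 had 2.54, 2.83 and 1.27 FPKM on day 0 and 14.9, 12.8 and 9.92 on day 7, all 3 higher (adjusted p 0.0383, 0.0215 and 0.0217). Efnb2, the arterial ligand of EphB4, which is also made by keratinocytes, fell from 34.9, 36.9 and 26.7 FPKM to 17.8, 18.8 and 16.2 FPKM (log2 change -1.06, SE 0.214, adjusted p 0.0446).

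Myeloid genes outside the marker lists rose as well. Ms4a7, a macrophage membrane protein, had 1.21, 1.35 and 0.808 FPKM on day 0 and 6.17, 8.03 and 6.9 on day 7. The log2 change of Ms4a7 was 2.48 (SE 0.333, adjusted p 0.0209). Lst1, a leukocyte transcript, had 6.93, 6.11 and 4.03 FPKM on day 0 and 35.6, 53.4 and 44.5 on day 7. For Lst1 the log2 change was 2.79 (SE 0.515, adjusted p 0.0375). The lectin receptor gene Clec4n had 2.14, 2.37 and 1.3 FPKM on day 0 and 9.58, 12.5 and 10.7 on day 7 (adjusted p 0.0446), and Aif1, which encodes IBA1, had 4.45, 3.16 and 2.64 FPKM on day 0 and 12.2, 21.5 and 16.2 on day 7 (adjusted p 0.0457). Further genes known to respond to interferon were called higher outside that list. Slfn8 of the Schlafen family had 0.292, 0.162 and 0.0595 FPKM on day 0 and 2.98, 3.29 and 1.47 on day 7 (log2 change 3.70, SE 0.686, adjusted p 0.0379), the ISG15-conjugating enzyme gene Ube2l6 had 3.93, 3.5 and 3.34 FPKM on day 0 and 15.1, 25.9 and 14.5 on day 7 (log2 change 2.21, SE 0.443, adjusted p 0.0446), and Tnfsf10, the death ligand TRAIL, had 0.553, 0.564 and 0.364 FPKM on day 0 and 2.47, 4.18 and 1.41 on day 7. This rise of Tnfsf10 had a log2 change of 2.28 (SE 0.409, adjusted p 0.0346).

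Transcripts of the mitochondrial chromosome were lower on day 7 in 26 of 35 members without overlap in FPKM (4.97% of all genes). After TMM scaling 10.5% of all genes lay below in this way, and these members were not counted on that scale. Of the 35 members 13 were called lower (0.591% of all genes) and 0 higher. Their median log2 change was -1.25 (with total-count scaling -1.08). mt-Nd5, a subunit of respiratory complex I, had 1445, 1385 and 1362 FPKM on day 0 and 508, 728 and 296 on day 7 (log2 change -1.60, SE 0.304, adjusted p 0.0402), and the cytochrome b gene mt-Cytb had 9806, 10318 and 10087 FPKM on day 0 and 4463, 6213 and 3451 on day 7. The fall of mt-Cytb amounted to a log2 change of -1.25 (SE 0.235, adjusted p 0.0402). Of 20 nuclear oxidative phosphorylation genes edgeR called none (2 with an unadjusted p under 0.05) and DESeq2 1 lower. The pseudogene Gm28437, which carries mitochondrial sequence, had 9977, 10183 and 9524 FPKM on day 0 and 5663, 6799 and 5805 on day 7, values close to those of mt-Co3 (10238, 10152 and 9531 FPKM on day 0 and 5648, 6771 and 5858 on day 7), so reads may have been shared between such copies. Mir147, a microRNA precursor, was seen on day 0 in replicates 1 and 2 at 46.5 and 29.5 FPKM but not in replicate 3 (0.243 FPKM), and was at most 0.172 FPKM on day 7.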
